A study of Mus musculus with 96 samples.

Results

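The genes described are 10 that write, copy, remove or protect DNA methylation: Dnmt1, Uhrf1, Dnmt3a, Dnmt3b, Dnmt3l, Tet1, Tet2, Tet3, Dppa3 and Zfp57. They were taken as a list by symbol, and all 10 are among the 36935 symbols of the deposited count table. RNA of single metaphase II oocytes and of single blastomeres, taken apart from 2-cell embryos, was sequenced in mice that carry the P620A variant of Padi6, a gene of the egg's cytoplasmic lattices. The labels give 22 columns of the table to Padi6+/+ oocytes, 22 to Padi6P620A/P620A oocytes, 22 to Padi6+/+ 2-cell embryos, 22 to 2-cell embryos that inherited the variant from the mother (Padi6MatP620A/+) and 8 to negative controls. Females were 4 to 8 weeks old and males 8 to 12 weeks old, and embryos came from in vitro fertilisation after hormone-induced ovulation. No strain and no individual animal is named, so the number of mothers behind the columns is unknown. The variant changes the protein, so the level of Padi6 RNA checks no genotype label.

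The stage labels disagreed with the genes that mark the stages, and columns were therefore placed by RNA content. A column was kept if it held 100000 counts or more and detected 4000 genes or more, which left out 17 of 96. It was called oocyte-like when Mos, the kinase that holds the egg in metaphase II, was at or above 100 counts per 1000000 (CPM). It was called 2-cell-like when Mos was below that level and Zfp352, a gene switched on in the 2-cell embryo, had a count. This gave 39 oocyte-like and 39 2-cell-like columns, and 1 column fell in neither class. The lowest Mos level of an oocyte-like column was 200.6 CPM and the highest of a 2-cell-like column was 63.3 CPM. Of 9 2-cell markers, Zfp352 among them, 8 had a median above 0 in 2-cell-like and 2 in oocyte-like columns. Their summed share of counts was 0.0793% to 0.408% and 0.00218% to 0.0311%. Of 10 oocyte markers, Mos among them, 9 had a median above 0 in 2-cell-like and 10 in oocyte-like columns. Their summed share was 0.482% to 1.37% and 0.494% to 6.91%. Medians went the other way for Oog1, an oocyte marker (181 and 99.4 CPM), and Krt73, a 2-cell marker (0 and 0.571 CPM). Mos and Zfp352 set the classes and are no separate check of them. The oocyte-like columns carried the labels wild-type oocyte (12), wild-type 2-cell (14), mutant 2-cell (9) and negative control (4). The 2-cell-like columns were labelled wild-type oocyte (7), mutant oocyte (19), mutant 2-cell (11) and negative control (2).

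The classes also differed in depth and in RNA from other sources. Total counts had a median of 3235840 in oocyte-like and 1608300 in 2-cell-like columns, and genes with a count a median of 13671 and 10370. Counts of 13 mitochondrial protein genes made up a median of 0.278% and 2.12% of the total. Markers of cumulus and granulosa cells (14 genes, 11 of them with a median above 0 in oocyte-like columns) summed to between 2.59e-05% and 1.16% of counts in oocyte-like and between 0% and 0.0139% in 2-cell-like columns. The summed share of 5 oviduct markers ranged from 0.00241% to 2.87% in oocyte-like and from 0.000405% to 0.0331% in 2-cell-like columns. Oocyte-like columns stood at positions 9 to 51 of the table and 2-cell-like ones at 53 to 96, so class and position cannot be told apart. The part of mitochondrial share and oviduct RNA in the differences below was not tested, and depth was made equal by thinning where stated. Without the 4 oocyte-like columns whose cumulus marker share was above 0.5%, the same genes passed 2-fold, with log2 ratios of -3.89 for Dnmt1, -1.26 for Uhrf1, -1.08 for Dnmt3a, -1.18 for Tet3, -2.03 for Zfp57 and 1.81 for Tet1, and with Dppa3 2.84-fold higher.

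Methyl groups on the cytosine of CG pairs are copied to the new DNA strand by Dnmt1, which Uhrf1 brings to sites methylated on the old strand alone. Dnmt3a and Dnmt3b place methylation on unmethylated DNA, and in growing oocytes this needs Dnmt3l, a related protein without catalytic activity. Tet1, Tet2 and Tet3 oxidise the methyl group as a step to its removal, and Tet3 is the form known from the oocyte and zygote. Dppa3, also called Stella, is known to shield the maternal genome from Tet3 and to keep Uhrf1 out of the oocyte nucleus, and Zfp57 is a zinc finger protein that binds methylated imprinting control regions.

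RefSeq (build GRCm38.p6) gave start-site windows for 9 of the 10 genes, 18 windows in all, and Dppa3 is named only. The 250 bases before a start are shown for 4 of the 5 genes whose RNA was lower in 2-cell-like columns, because the genes share that direction and their windows differ in CG content. Capitals mark each CG pair, the site the encoded enzymes act on, and every window is written 5′ to 3′ on the gene's own strand. Dnmt1 is on the minus strand and has 3 starts in the table, the first 2 of them 6909 bases apart, and the windows of all 3 are given.
Dnmt1, upstream start, chr9:20959889-20960138, minus strand: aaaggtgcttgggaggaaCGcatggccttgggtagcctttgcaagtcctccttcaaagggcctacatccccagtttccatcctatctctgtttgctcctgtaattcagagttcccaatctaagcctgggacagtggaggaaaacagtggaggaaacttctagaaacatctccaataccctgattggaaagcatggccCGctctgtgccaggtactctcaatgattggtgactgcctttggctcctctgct
Dnmt1, next start, chr9:20952980-20953229, minus strand: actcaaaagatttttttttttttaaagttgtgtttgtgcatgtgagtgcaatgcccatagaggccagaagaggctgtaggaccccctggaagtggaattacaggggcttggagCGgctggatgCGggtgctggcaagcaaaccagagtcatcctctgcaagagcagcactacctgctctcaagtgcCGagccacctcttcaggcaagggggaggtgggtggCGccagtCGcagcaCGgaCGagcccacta
Dnmt1, downstream start, chr9:20952624-20952873, minus strand: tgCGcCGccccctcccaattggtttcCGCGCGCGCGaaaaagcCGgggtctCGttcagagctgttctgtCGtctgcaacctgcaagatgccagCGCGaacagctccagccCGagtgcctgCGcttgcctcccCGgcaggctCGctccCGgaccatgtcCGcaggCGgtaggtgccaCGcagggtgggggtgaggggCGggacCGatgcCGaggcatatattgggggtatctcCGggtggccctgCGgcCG
Zfp57, first start, chr17:37000913-37001162, plus strand: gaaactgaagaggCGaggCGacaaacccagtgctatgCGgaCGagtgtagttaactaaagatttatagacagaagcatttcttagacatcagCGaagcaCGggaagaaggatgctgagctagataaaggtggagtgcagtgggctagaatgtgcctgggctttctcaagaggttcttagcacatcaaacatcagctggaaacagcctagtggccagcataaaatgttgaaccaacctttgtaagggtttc
Uhrf1, first start, chr17:56303087-56303336, plus strand: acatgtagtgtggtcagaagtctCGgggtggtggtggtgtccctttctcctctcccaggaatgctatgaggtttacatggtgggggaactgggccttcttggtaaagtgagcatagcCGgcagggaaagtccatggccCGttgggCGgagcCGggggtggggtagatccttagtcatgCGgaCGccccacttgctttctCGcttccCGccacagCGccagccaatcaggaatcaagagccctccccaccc
Tet3, chr6:83441679-83441928, minus strand: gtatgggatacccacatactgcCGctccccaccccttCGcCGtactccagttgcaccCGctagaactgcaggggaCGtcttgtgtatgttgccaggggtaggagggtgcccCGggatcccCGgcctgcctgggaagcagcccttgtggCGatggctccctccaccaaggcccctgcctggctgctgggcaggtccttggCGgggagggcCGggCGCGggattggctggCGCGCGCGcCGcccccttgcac
The upstream Dnmt1 window holds 2 CG pairs, the next one 7 and the downstream one 26, more than 90.4% of windows, against a median of 6 over all 32851 windows of the table. The first Zfp57 window holds 6, the first Uhrf1 window 10 and the Tet3 window 17. Of the windows not printed, the second of Uhrf1 holds 30 CG pairs, those of Zfp57 hold 7 and 3, and those of Dnmt3a, the fifth gene lower in 2-cell-like columns, hold 38, 40 and 15, so starts of 1 gene also differ in CG content. CCAAT (either strand) occurs 4 times in the upstream Dnmt1 window, 3 times in the downstream one, once in the Uhrf1 and once in the Tet3 window, and in 33.8% of all windows. TATAAA (either strand) occurs once in the Zfp57 window and in 12.4% of all windows. GGGCGG (either strand) is in the downstream Dnmt1 window and in the Uhrf1 and Tet3 windows and in 32.7% of all windows, and CACGTG, in 6.02% of all, is in none of these 6. The counts are summed per gene and do not show which start was used, and the coordinates are of an earlier build than the GRCm39 alignment.

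Of the 10 genes, 9 were at or above the level set for comparison, 10 CPM pooled over a class with a count in at least 50% of the columns of the higher class; Tet2 was not. Pooled levels, the counts of a class over its total, were at least 2-fold higher in 2-cell-like columns for 2 genes, Dppa3 and Tet1, and at least 2-fold lower for 5, Dnmt1, Uhrf1, Dnmt3a, Tet3 and Zfp57. Among all 9677 genes compared, 20.9% passed 2-fold upwards and 27.8% downwards, so a difference of this size was common. The median log2 ratio was -1.01 over the 9 genes and -0.08 over all genes. With DESeq2 size factors in place of CPM the median of all genes moved by -0.31 and the split changed from 2026 higher and 2691 lower to 1404 and 3405, while the same 2 and 5 genes were called. Each class was treated as 1 sample and no test was run, because the labels name no animals. The 95% intervals below cover counting error only, since PCR copies without molecular identifiers are not independent molecules. CPM is a share of a library: less RNA of a gene per cell and more RNA of other genes cannot be told apart.

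**Figure D1:**
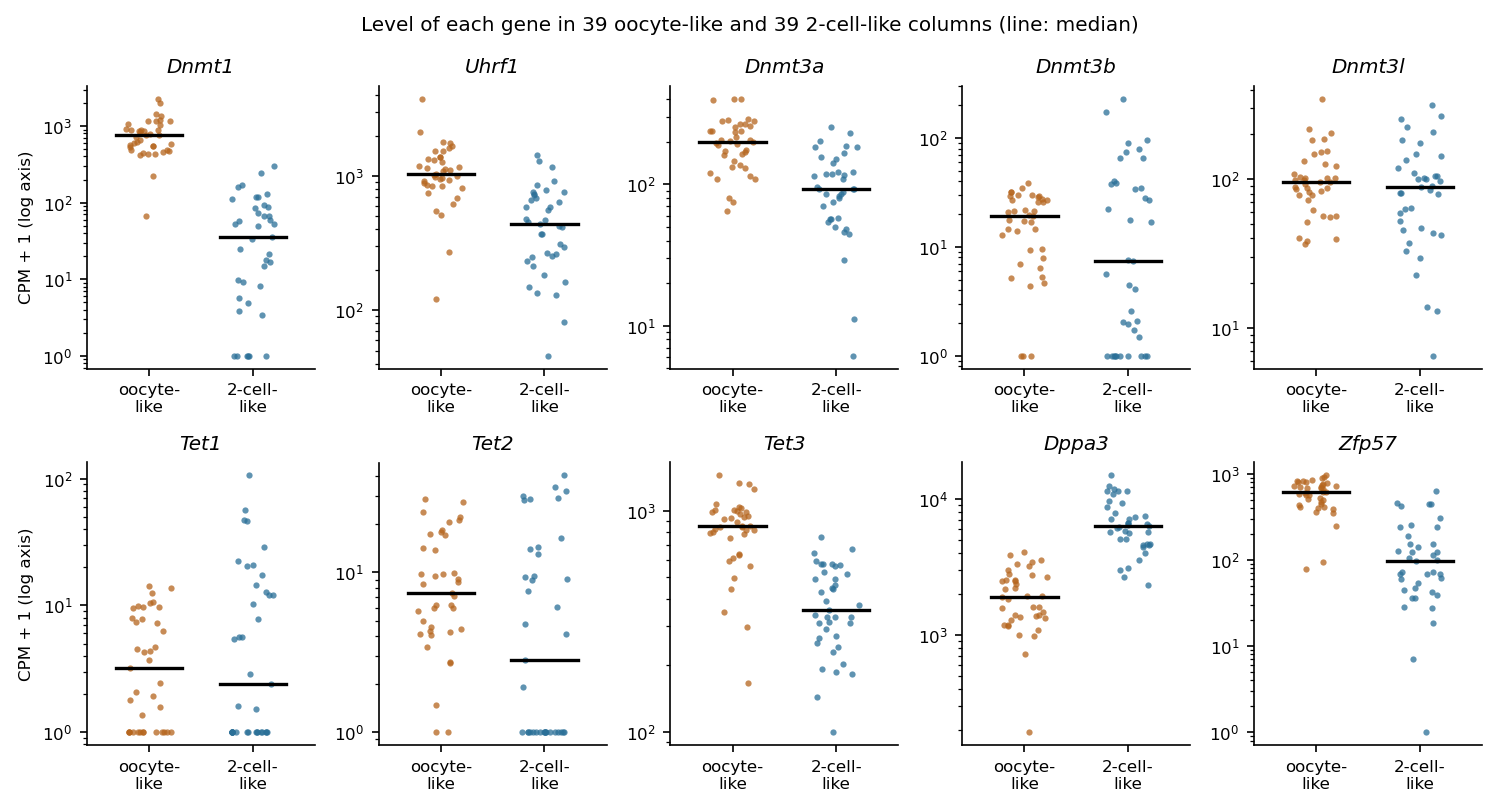
Level of each of the 10 genes per column, as CPM with 1 added on a log axis, in 39 oocyte-like (brown) and 39 2-cell-like (blue) columns, with the median as a line. Of the 39 2-cell-like columns, 27 lie below every oocyte-like column for Dnmt1 and 19 for Zfp57, and 33 lie above every one for Dppa3. The 2-cell-like and oocyte-like medians of these genes are 34.3 against 759 CPM, 95.3 against 611 CPM and 6324 against 1903 CPM. For Dnmt3l 33 of the 39 lie within the oocyte-like range.

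Dnmt1, the maintenance methyltransferase, had the largest difference of the 10 genes. Its level ranged from 66.5 CPM to 2265 CPM in oocyte-like columns with a median of 759 CPM, and from 0 to 299 CPM in 2-cell-like columns with a median of 34.3 CPM. Of the 39 2-cell-like columns, 27 lay below every oocyte-like column, and 37 oocyte-like columns lay above every 2-cell-like column. The pooled level was 14.1-fold lower in 2-cell-like columns (95% interval 13.6 to 14.5), the ratio of medians was 22.1-fold lower, and 3.52% of the genes compared had a smaller pooled ratio. No Dnmt1 count was seen in 6 of the 2-cell-like columns, of which 1 was labelled wild-type oocyte, 2 mutant oocyte and 3 mutant 2-cell. After each column was thinned to 100000 counts, Dnmt1 was counted in 39 of 39 oocyte-like and in 28 of 39 2-cell-like columns, with medians of 72 and 3 counts.

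The oocyte-like columns that overlapped the 2-cell-like range for Dnmt1 were columns 23 and 61, at 66.5 and 221 CPM. Column 23 was labelled negative control and column 61 wild-type 2-cell, and their cumulus marker shares were 0.517% and 1.16%. Without them, a choice made after the values were seen, the lowest oocyte-like level was 421 CPM and all 39 2-cell-like columns lay below it. That follows from leaving out the only overlapping columns and is no separate result. With all columns, 0.289% of the genes compared were completely separated with the lower level in 2-cell-like columns, and Dnmt1 was not among them. Without columns 23 and 61 the share was 0.579%. These columns were picked with the Dnmt1 values seen, so that share does not measure how rare the Dnmt1 separation was. The pooled log2 ratio was -3.81 with them and -3.87 without them. In columns labelled wild type alone the Dnmt1 level was 12.4-fold lower, and in those labelled mutant alone 13.7-fold lower.

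Uhrf1, the partner that reads hemimethylated DNA, was lower by a smaller factor than Dnmt1. Oocyte-like columns ranged from 119 to 3765 CPM with a median of 1036 CPM, and 2-cell-like columns from 44.8 to 1436 CPM with a median of 440 CPM. The ranges overlapped widely: 37 of the 39 2-cell-like columns lay within the oocyte-like range. The pooled level was 2.25-fold lower (2.23 to 2.28), and 3.95-fold lower in columns labelled wild type alone. Of the counts of Dnmt1 and Uhrf1 added together, Dnmt1 made up a median of 41.8% in oocyte-like columns (19.6% to 65.0%) and of 5.59% in 2-cell-like columns (0% to 59.6%).

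Dnmt3a, the main de novo methyltransferase of the oocyte, ranged from 64.0 to 399.9 CPM in oocyte-like columns (median 196 CPM) and from 5.14 to 252 CPM in 2-cell-like columns (median 91.5 CPM). Its pooled level was 2.02-fold lower (1.96 to 2.07), at the edge of the 2-fold level. The call was lost when any 1 of 19 columns was left out (3, 4, 7, 8, 18, 20, 22, 24, 26, 27, 31, 32, 51, 52, 73, 74, 81, 85 and 93), with ratios between 1.95-fold and 1.998-fold lower. It was also lost with means of CPM (1.97-fold), with thinned counts (1.88-fold) and with the Mos level at 50 CPM (1.98-fold). The pooled decrease was 3.15-fold in columns labelled wild type alone. In the 2-cell-like class 11 columns lay below every oocyte-like column and 28 within the oocyte-like range.

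Dnmt3b, the de novo enzyme known best from the later embryo, was low in both classes and uneven among 2-cell-like columns. Oocyte-like columns ranged from 0 to 37.4 CPM (median 18.1 CPM) and 2-cell-like columns from 0 to 228 CPM (median 6.38 CPM). In the 2-cell-like class 10 columns had no count while 10 others lay above every oocyte-like column. The pooled level was 1.76-fold higher in 2-cell-like columns (1.65 to 1.88) whereas the median was 2.85-fold lower, so no single direction describes the gene. In columns labelled wild type alone Dnmt3b was 2.33-fold higher. The 5 2-cell-like columns with most Dnmt3b counts held 56.8% of the 1879 counts of the class.

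Dnmt3l, the catalytically inactive partner of Dnmt3a, had about the same level in both classes when all columns were pooled. Oocyte-like columns ranged from 35.8 to 346 CPM with a median of 94.4 CPM, and 2-cell-like columns from 5.51 to 314 CPM with a median of 87.4 CPM. The pooled ratio was 0.997 (0.968 to 1.03), and 33 of 39 2-cell-like columns lay within the oocyte-like range. Dnmt3l was 1.75-fold lower in the 2-cell-like class in columns labelled wild type alone, and in those labelled mutant alone its ratio was 1.05. Of the counts of Dnmt3l and Dnmt3a together, Dnmt3l made up a median of 31.5% in oocyte-like and 46.1% in 2-cell-like columns. Exons of Dnmt3l share 67 bases with Aire on the opposite strand, and those of Dnmt3a share 133 bases with Dnmt3aos. Reads from these overlaps cannot be told apart without strand information.

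**Figure D2:**
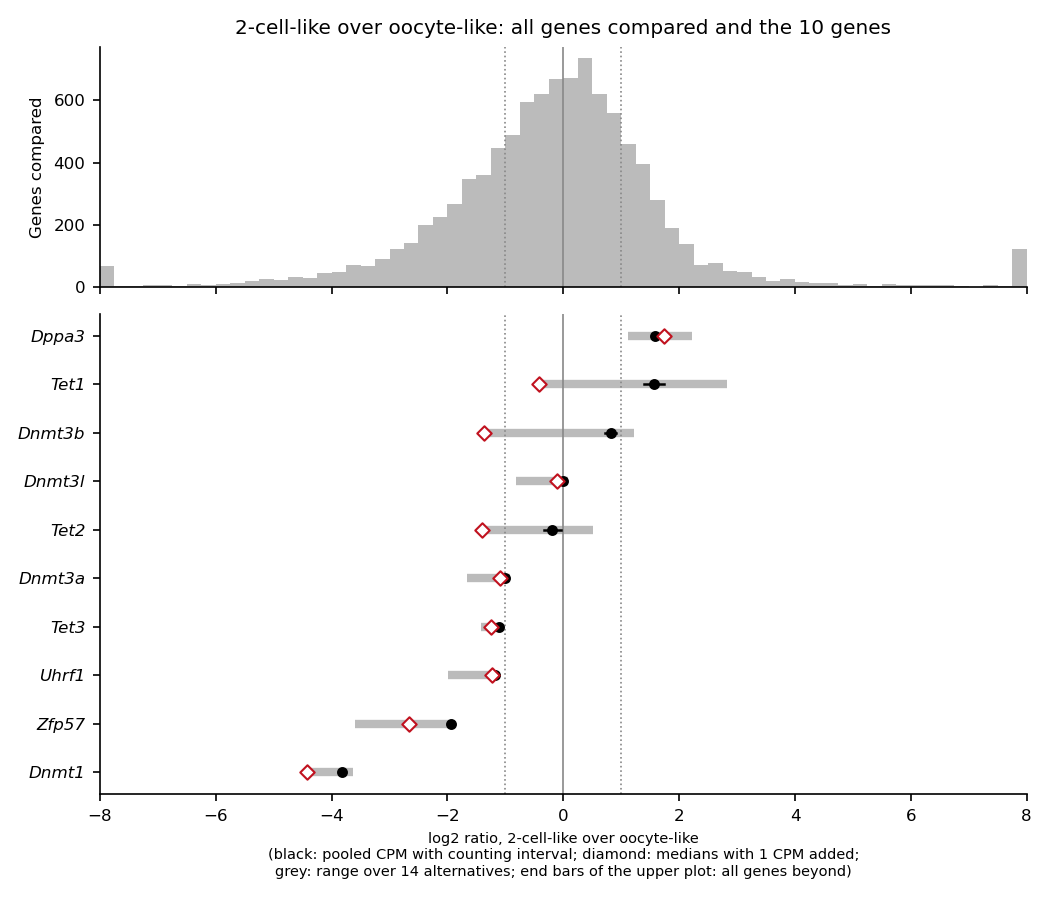
Above, the number of genes compared by log2 ratio of pooled CPM, 2-cell-like over oocyte-like, in steps of 0.25, with genes beyond either end in the end bars; below, the 10 genes with their pooled ratio and counting interval (black), the ratio of medians with 1 CPM added (diamond) and the range over 14 alternative settings (grey). Dnmt1 lies at -3.81 and Zfp57 at -1.95, Dppa3 lies at 1.58, and for Tet1 and Dnmt3b the black point and the diamond lie on opposite sides of 0.

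Tet3, the methylcytosine oxidase of oocyte and zygote, was far above Tet1 and Tet2 per kilobase of exon in both classes. It ranged from 165 to 1446 CPM in oocyte-like columns (median 850 CPM) and from 98.6 to 760 CPM in 2-cell-like columns (median 357 CPM). Of the oocyte-like columns 28 of 39 lay above every 2-cell-like column, and 2 of the 2-cell-like columns lay below every oocyte-like one. The pooled level was 2.15-fold lower in 2-cell-like columns (2.12 to 2.18). Per kilobase of exon, the medians of Tet3, Tet2 and Tet1 were 50.9, 0.383 and 0.143 CPM in oocyte-like columns and 21.4, 0.107 and 0.0896 CPM in 2-cell-like columns.

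Tet1 and Tet2, the oxidases studied mostly in pluripotent and blood cells, were near the limit of detection. Tet1 ranged from 0 to 13.2 CPM in oocyte-like columns (median 2.20 CPM) and from 0 to 105 CPM in 2-cell-like columns (median 1.38 CPM). A group of 10 2-cell-like columns lay above every oocyte-like column and 17 had no count. The pooled Tet1 level was 2.97-fold higher (2.64 to 3.35), but 1 column, column 8, labelled wild-type oocyte, held 31.8% of the 752 counts of the class. Without it the pooled log2 ratio of Tet1 was 1.07 instead of 1.57, the 2-cell-like level fell to 8.19 CPM and the gene no longer met the level for comparison. With medians the Tet1 ratio turned, to a log2 value of -0.43. With thinned counts Tet1 was 6.29-fold higher, on 7 counts in oocyte-like columns, and in mutant-labelled columns alone 2.60-fold higher. It was not called in either setting because it was then below the level for comparison. It was 7.09-fold higher and called in columns labelled wild type alone.

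Tet2 did not meet the level for comparison, with 0 to 27.9 CPM in oocyte-like columns (median 6.46 CPM) and 0 to 39.5 CPM in 2-cell-like columns (median 1.81 CPM). A Tet2 count was seen in 37 of 39 oocyte-like columns (94.9%) and in 21 of 39 2-cell-like columns (53.8%). After thinning to 100000 counts these became 17 and 13 columns. The thinned pooled Tet2 level was 1.17-fold higher in 2-cell-like columns, so no order is read from the number of columns with a count. Tet1 was counted in 26 oocyte-like and 22 2-cell-like columns before thinning and in 7 and 15 after it. These thinned shares were 17.9% and 38.5% of the columns, with at most 1 Tet1 count in an oocyte-like column. Columns are not replicates of a class, so no order is read for Tet1 either. Tet2 shares 43 exonic bases with a predicted gene on the opposite strand.

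Dppa3, the protector of the maternal genome, was the most abundant of the 10 genes per kilobase of exon in both classes and differed the other way from Dnmt1. It ranged from 193 to 4060 CPM in oocyte-like columns (median 1903 CPM) and from 2337 to 14881 CPM in 2-cell-like columns (median 6324 CPM). Of the 2-cell-like columns 33 of 39 lay above every oocyte-like column, and 24 of the oocyte-like columns lay below every 2-cell-like one. The pooled level was 3.00-fold higher (2.98 to 3.01), and 88.9% of the genes compared had a smaller ratio. In columns labelled wild type alone it was 4.67-fold higher, and in those labelled mutant alone 2.18-fold higher. GENCODE M21 lists a processed pseudogene named for Dppa3 (Dppa3-ps), and likewise for Dnmt3a and Dnmt3l. How reads that match more than 1 place were counted is not given in the sources used here, so the levels and ratios of these 3 genes are uncertain to that extent.

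Zfp57, which keeps methylation at imprinted regions, had the second largest decrease. It ranged from 77.4 to 955 CPM in oocyte-like columns with a median of 611 CPM, and from 0 to 633 CPM in 2-cell-like columns with a median of 95.3 CPM. In the 2-cell-like class 19 columns lay below every oocyte-like column. The lowest oocyte-like values belonged again to columns 61 and 23, and without these, 32 of the 39 2-cell-like columns lay below the oocyte-like minimum of 248 CPM. Leaving out the lowest oocyte-like values raises that number by construction. The pooled level was 3.85-fold lower (3.77 to 3.94) and the median 6.41-fold lower. In columns labelled wild type alone the decrease was 12.0-fold, and in those labelled mutant alone 3.78-fold.

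**Figure D3:**
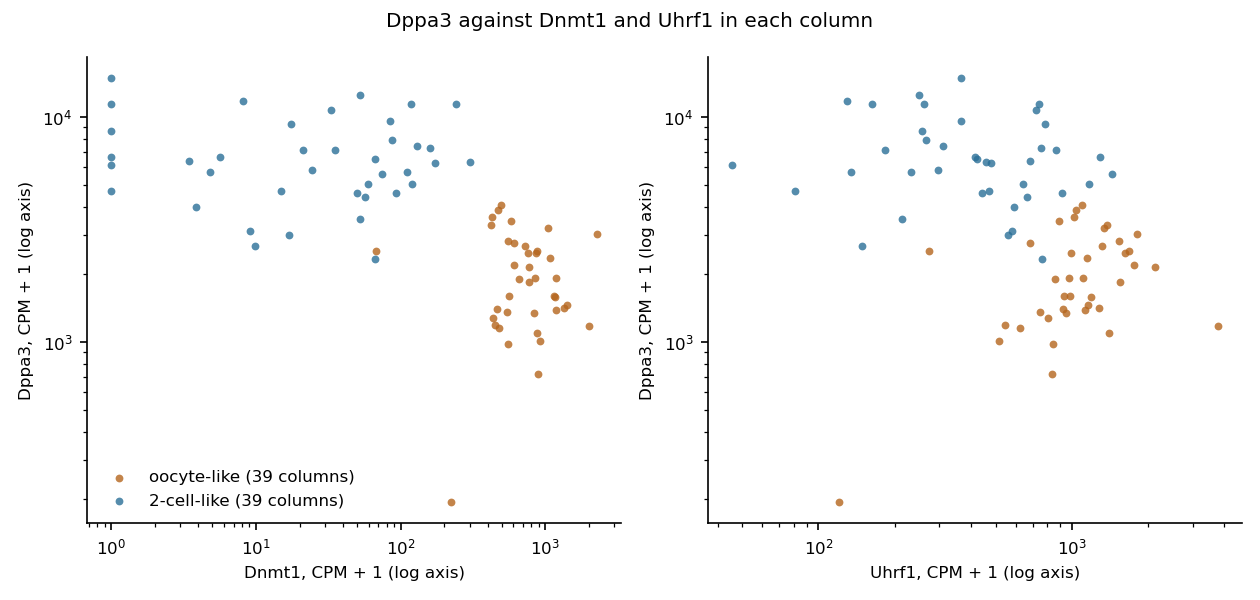
Dppa3 against Dnmt1 (left) and against Uhrf1 (right) in each column, both as CPM with 1 added on log axes, for 39 oocyte-like (brown) and 39 2-cell-like (blue) columns. With Dnmt1 the classes form separate clouds, apart from 1 oocyte-like column at 66.5 CPM of Dnmt1, while with Uhrf1 the classes overlap along the Uhrf1 axis and are parted mainly by Dppa3.

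Per kilobase of exon, the order of median levels in oocyte-like columns was Dppa3 (2134 CPM), Uhrf1 (243 CPM), Zfp57 (161 CPM), Dnmt1 (103 CPM), Tet3 (50.9 CPM), Dnmt3l (31.6 CPM), Dnmt3a (11.8 CPM), Dnmt3b (3.55 CPM), Tet2 (0.383 CPM) and Tet1 (0.143 CPM). In 2-cell-like columns Dppa3 (7090 CPM) and Uhrf1 (103 CPM) again led, and Dnmt1, at 4.65 CPM, ranked 7 where it ranked 4 in oocyte-like columns. Dnmt3l (29.2 CPM), Zfp57 (25.2 CPM) and Tet3 (21.4 CPM) followed Uhrf1 closely together. Their ranges overlapped widely, 1.84 to 105 CPM for Dnmt3l, 0 to 167 CPM for Zfp57 and 5.91 to 45.5 CPM for Tet3, so their order is not set by these columns. Dnmt3a (5.50 CPM) and Dnmt1 likewise overlapped. Dppa3 stood clear: its lowest 2-cell-like value, 2620 CPM, was above the highest of Uhrf1, 337 CPM. In oocyte-like columns ranges overlapped too, 28.0 to 884 CPM for Uhrf1, 20.4 to 252 CPM for Zfp57, 9.02 to 307 CPM for Dnmt1 and 9.86 to 86.6 CPM for Tet3. The order of these genes there, and so the change in rank of Dnmt1, is likewise not set. Lengths are from the GENCODE M21 exon union of the gene.

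Within a class the levels of some of the genes moved together. Spearman's rho, given here as a description over 39 columns of each class that share depth and library chemistry, was 0.67 and 0.63 between Uhrf1 and Tet3 in oocyte-like and 2-cell-like columns, and 0.77 and 0.52 between Uhrf1 and Dnmt3a. Between Dnmt1 and Zfp57 it was 0.67 and 0.27. Dnmt3a and Dppa3 had a rho of 0.49 in oocyte-like but -0.42 in 2-cell-like columns. In oocyte-like columns Tet3 also had a rho of -0.67, Dppa3 of -0.47, and Dnmt3a and Uhrf1 of -0.45 each, with the cumulus marker share of the column. With the mitochondrial share, rho in oocyte-like columns was -0.72 for Dnmt3l, -0.56 for Uhrf1, -0.55 for Zfp57, -0.54 for Dnmt3a and -0.52 for Dnmt1. The part of these shares in the relations between the genes was not tested.

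The genes most like each member were chosen by the lower of its rhos in the 2 classes. For Dnmt1 they were Nudcd3 (0.57), Tle6 (0.47), a gene of the subcortical maternal complex, and Gdf9 (0.47), a growth factor secreted by the oocyte. For Uhrf1 they were Fam151a, Slc30a3 and Tent5b (0.64, 0.64 and 0.63), and for Dnmt3a Zfp276, Slc39a6 and Asb8 (0.65, 0.61 and 0.60). Dnmt3b was most like Tiam1 (0.46), G3bp2 (0.44) and Dsn1 (0.41), and Dnmt3l most like Rusf1 (0.61), Naa11 (0.57) and E2f2 (0.56).
Tet2 did not meet the level for comparison and was left out. For Tet1 they were Dusp6 (0.48), Ttc3 (0.46) and Zyg11b (0.40), all on few counts. Tet3 was most like Nos1 (0.65), Uhrf1 (0.63) and Ski (0.62), and Zfp57 most like G6pdx (0.68), Ski (0.62) and Slc30a3 (0.60). The highest value belonged to Dppa3 with Pttg1 (0.70), the gene of securin, followed by Rbx1 (0.64) and Ccdc6 (0.63).

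Beside these genes, 58 others of the pathway were described in 6 lists, of which 47 met the level for comparison. Of those, 7 passed 2-fold upwards and 12 downwards, and their median log2 ratio was -0.20. Those shares can be read against 20.9% higher and 27.8% lower among all genes. Among 6 of 7 partners of maintenance methylation compared, 0 were called higher and 1 lower: Hells, a remodeller that opens chromatin for methylation, at 2.30-fold lower (2.22 to 2.39), with medians of 124 CPM in oocyte-like and 44.2 CPM in 2-cell-like columns. Pcna, the clamp of the replication fork, was 1.98-fold lower and not called.

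Of 10 chromatin factors that act before de novo methylation in oocytes, 9 were compared, 0 were called higher and 1 lower. That gene was Cxxc1, a CpG-binding subunit of a histone H3 lysine methyltransferase complex, at 2.74-fold lower (2.58 to 2.93). Kmt2b, a histone methyltransferase, was 1.69-fold lower and not called.

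The 10 genes of imprint protection included 4 called lower and 1 higher. Ehmt1, a histone methyltransferase, was 4.11-fold lower (3.92 to 4.31), with medians of 114 CPM and 22.0 CPM. Trim28, the corepressor that Zfp57 recruits, was 3.16-fold lower (3.04 to 3.28), with medians of 160 CPM in oocyte-like and 39.9 CPM in 2-cell-like columns. Setdb1, the histone methyltransferase that works with Trim28, was 2.62-fold lower, and Nlrp2, a maternal-effect gene, 2.35-fold lower. Zfp445, a zinc finger protein that also protects imprints, was 2.02-fold higher.

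Of 15 genes of base excision and active demethylation 10 were compared, with 3 higher and 3 lower. Xrcc1, the scaffold of single-strand break repair, was 8.99-fold lower (8.10 to 10.0), with a median of 48.4 CPM in oocyte-like and 0 CPM in 2-cell-like columns. Gadd45g, a stress-response gene linked to demethylation, was 4.74-fold higher (4.37 to 5.15), with medians of 0 and 8.10 CPM and up to 571 CPM in a 2-cell-like column. The glycosylase genes differed in direction: Neil3 was 4.59-fold lower and Smug1 3.54-fold lower, while Ung was 2.77-fold higher. Gadd45b was 3.86-fold higher.

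Among 6 readers of methylated CG, 3 were compared, and Mbd2 (3.05-fold, 2.70 to 3.45) and Mbd3 (2.05-fold, 1.91 to 2.21) were higher when pooled. Both were low: medians in oocyte-like and 2-cell-like columns were 2.57 and 3.61 CPM for Mbd2 and 7.32 and 15.6 CPM for Mbd3. The highest 2-cell-like values were 105 and 148 CPM. Of the 2-cell-like columns, 7 lay above every oocyte-like one for Mbd2 and 4 for Mbd3. Of 10 genes of methyl donor and cofactor supply 9 were compared, with 1 higher and 3 lower. Ahcy, which clears the product of methyl transfer, was 46.6-fold lower (32.2 to 70.3), with medians of 19.1 CPM in oocyte-like and 0 in 2-cell-like columns. Idh1, which makes the cofactor of the Tet enzymes, was 28.6-fold lower when pooled, with medians of 132 CPM and 9.80 CPM. Idh2 was 14.1-fold lower when pooled, with medians of 4.97 CPM in oocyte-like columns, which ranged up to 86.2 CPM, and 0 in 2-cell-like columns. Shmt1, of the folate cycle, was 6.07-fold higher, with medians of 1.18 and 12.9 CPM in oocyte-like and 2-cell-like columns. The part of cumulus RNA in the difference of Idh2 was not tested. In these lists Setdb1, Nlrp2, Zfp445, Neil3, Smug1, Ung, Gadd45b, Idh2 and Shmt1 were named after their values were seen.

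**Figure D4:**
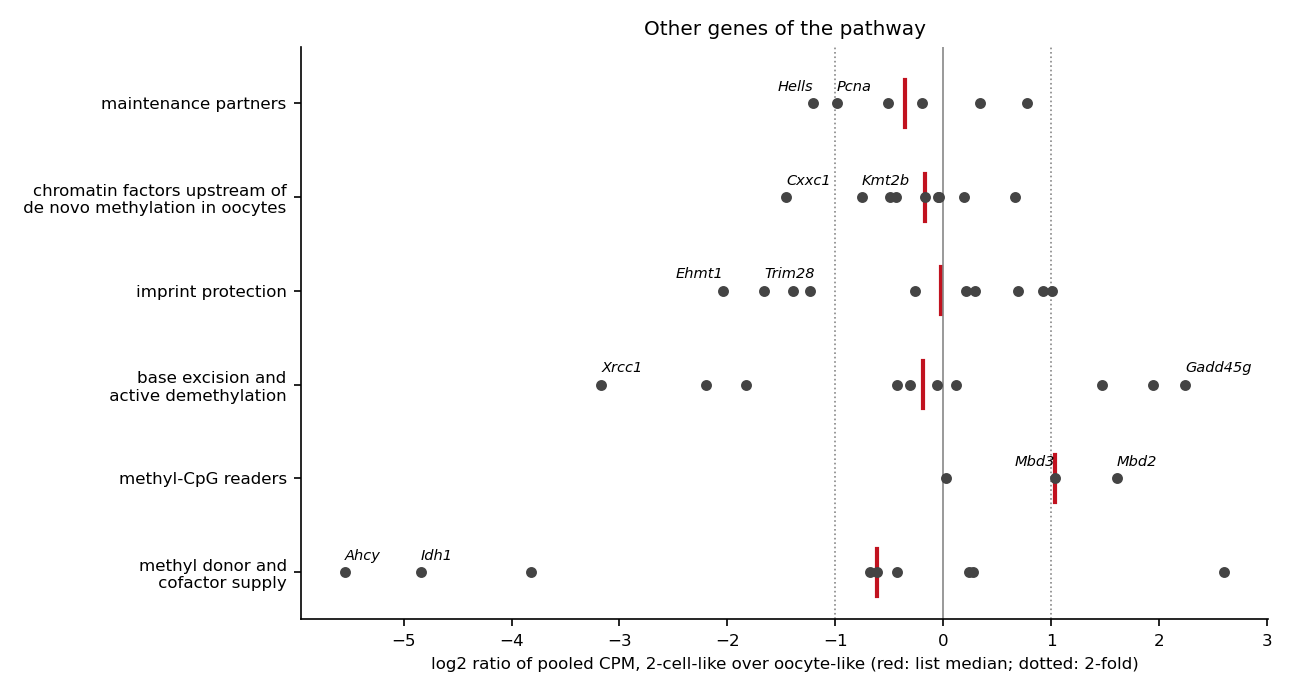
Log2 ratio of pooled CPM, 2-cell-like over oocyte-like, for the 47 other pathway genes compared, 1 point a gene in 6 lists, with the median of each list in red and dotted lines at 2-fold. The largest decreases are those of Ahcy and Idh1, at -5.54 and -4.84, and in 3 of the lists genes lie beyond 2-fold on both sides.

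The genotype label was compared within a class, with oocyte and 2-cell labels pooled. Mutant thus covers Padi6P620A/P620A (labelled mutant oocyte) and Padi6MatP620A/+ (labelled mutant 2-cell). No gene used here checks the genotype part of a label. The stage part of the same labels did not match the RNA, and 4 oocyte-like and 2 2-cell-like columns were labelled negative control. The genotype part is therefore in doubt too, and differences by genotype label are not read as effects of the variant. Among oocyte-like columns 9 were labelled mutant, all of them mutant 2-cell, and 26 wild type. None of the 10 genes passed 2-fold either way, Tet1 being below the level for comparison, against 0.429% higher and 15.8% lower among 9093 genes. The cumulus marker share had a median of 0.00798% in mutant-labelled and 0.0430% in wild-type-labelled oocyte-like columns, and its part in this comparison was not tested. The number of genes lower fell from 1437 to 816 when column 61 was left out, and the number higher rose from 39 to 61 without column 85 or without column 90. DESeq2 size factors moved the median of all genes by -0.10 in this comparison and by 0.12 in the one among 2-cell-like columns. For 8 genes all 9 mutant-labelled columns lay within the wild-type-labelled range, and Zfp57 had 1 above it and Tet2 3 below it.

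Dppa3 ranged from 1196 to 3880 CPM in mutant-labelled oocyte-like columns (median 2545 CPM) and from 193 to 4060 CPM in wild-type-labelled ones (median 1598 CPM). The pooled Dppa3 ratio was 1.46 (1.45 to 1.48), and every mutant-labelled column lay within the other range. Tet2 was 1.94-fold lower (1.62 to 2.34) on medians of 5.22 and 8.26 CPM, and passed 2-fold when any 1 of columns 9, 10, 18, 84, 85 and 87 was left out. Dnmt1 had medians of 556 and 807 CPM with a pooled ratio of 0.878.

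Among 2-cell-like columns 30 were labelled mutant and 7 wild type. The latter were all labelled oocyte and all at positions 73 to 80 of the table, so label and position cannot be told apart. The mutant-labelled columns pooled 19 labelled mutant oocyte and 11 labelled mutant 2-cell. Their medians were 561 and 416 CPM for Uhrf1, 97.9 and 121 CPM for Zfp57, and 1.38 and 0 CPM for Tet1. All 10 genes met the level for comparison. Uhrf1 and Zfp57 were at least 2-fold higher in mutant-labelled columns, against 18.6% of 8549 genes, and Tet1 was at least 2-fold lower, against 6.32%. Zfp57 ranged from 6.09 to 67.8 CPM in wild-type-labelled columns (median 46.2 CPM) and from 0 to 633 CPM in mutant-labelled ones (median 108 CPM). The pooled Zfp57 level was 3.60-fold higher (3.30 to 3.93), with 20 of 30 mutant-labelled columns above every wild-type-labelled one and 1 below.

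Uhrf1 ranged from 129 to 421 CPM in wild-type-labelled 2-cell-like columns (median 266 CPM) and from 44.8 to 1436 CPM in mutant-labelled ones (median 474 CPM). The pooled Uhrf1 ratio was 2.04 (1.97 to 2.12), and it dropped below 2 when any 1 of columns 4, 5, 38, 45 and 76 was left out, to between 1.79 and 1.97, and also with medians (1.78) and with TMM factors (1.91). Dnmt3a and Dnmt3l had pooled ratios of 1.80 (1.66 to 1.94) and 1.76 (1.63 to 1.91), and that of Dnmt3l was 2.07 without column 8. For Uhrf1 the highest wild-type-labelled column lay below the mutant-labelled median, though 10 mutant-labelled columns lay within the wild-type-labelled range and 2 below it.

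Tet1 was 4.46-fold lower in mutant-labelled 2-cell-like columns (3.86 to 5.17), with medians of 0.258 CPM and 11.1 CPM. Every mutant-labelled column lay within the wild-type-labelled range of 0 to 105 CPM, whose upper end was set by column 8. Without that column Tet1 was 2.07-fold lower. Dppa3 was 1.47-fold lower (1.46 to 1.48) and not called, with 14 of 30 mutant-labelled columns below every wild-type-labelled one. Its medians were 6184 CPM and 7929 CPM. Tet3, with medians of 346 and 389 CPM, and Dnmt1, with 26.2 and 65.9 CPM, had pooled ratios of 1.10 and 0.790.

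**Figure D5:**
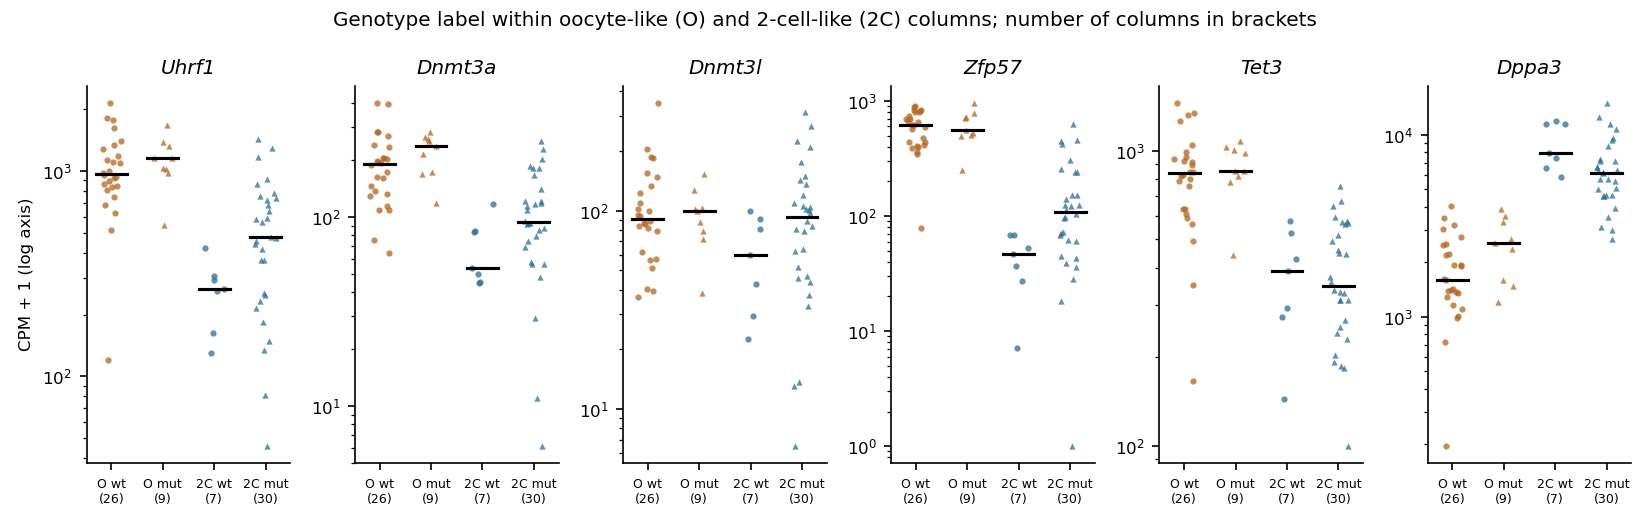
Level of 6 genes as CPM with 1 added on log axes, by genotype label (wt, circles; mut, triangles) within oocyte-like (O) and 2-cell-like (2C) columns, with the median as a line and the number of columns under each group. The 7 2-cell-like columns labelled wild type lie at or below 67.8 CPM of Zfp57, where 20 of 30 labelled mutant lie above, and the oocyte-like groups overlap for all 6 genes.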

How the data were processed

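The authors deposited raw counts per gene, whole numbers with no normalization, in 1 table of 96 columns. Reads were trimmed with Trim Galore 0.4.4 and aligned with HISAT2 2.1.0 to GRCm39, and DESeq2 was used, per the submitters' processing notes. The counting tool and annotation are not given in the sources used here. Per the labels' protocols, polyadenylated RNA of single picked cells was captured on beads apart from the DNA, copied with template switching and amplified by PCR. Each of the 96 columns matched 1 sample by number, stage and genotype. Of 36983 gene rows, 48 repeated a symbol and were summed.

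Columns were kept and classed as in the report, and no 2 of the 78 classed columns held identical counts. Doublets were not searched for, and the protocols describe cells picked singly. Columns labelled negative control are not described as cells, and some columns held marker RNA of other cell types, as given above. Total counts ran from 162539 to 5762563 over oocyte-like and from 503644 to 3185910 over 2-cell-like columns. Pooled CPM was the summed counts of a class per 1000000 of its total, with exact Poisson intervals, and ratios had exact conditional binomial 95% intervals. A gene was called at a ratio of at least 2, and classes with no count were set to a floor of 3 counts. Alternatives were medians and means of CPM, edgeR 4.0.16 TMM factors, DESeq2 1.42.0 size factors, thinning to 100000 counts, other column and gene filters, other Mos and Zfp352 levels, genotype labels apart and each column left out. Leaving out columns 23 and 61 together was added after the values were seen. The comparison was tested on simulated data before use. Python 3.11.15 with pandas 2.3.3 and scipy 1.17.1 was used.

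The genes and all gene lists were chosen with earlier results of these data known. The genes named are the 10 members, the 2 genes with the largest log2 ratio either way in each list, and the 3 most alike genes per member that met the level for comparison. Promoter windows are RefSeq's on GRCm38.p6, and exon lengths and overlaps are from GENCODE M21. The labels do not say that columns came from separate animals, so spreads between columns may be technical.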

Additional observations from a re-analysis of the deposited data

Results flagged for a closer look

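Among 30 groups of 4 to 10 columns examined over the 10 genes for a value far from the others, 2 were set apart. Both concerned Tet3 in oocyte-like columns. The rule sets apart about 1 in 20 groups of independent, normally distributed values. Here the same columns were examined for each gene, so that rate was not established for these groups. Column 87, labelled mutant 2-cell, had 440.9 CPM of Tet3 where the other 8 columns with that label ranged from 783 to 1072 CPM. Column 23, labelled negative control, had 295.5 CPM of Tet3 where the other 3 with that label ranged from 968 to 1009 CPM. The cumulus marker share was 0.552% in column 87 and 0.517% in column 23, both among the 4 oocyte-like columns above 0.5%, and its part in these values was not tested.

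The column in neither class, column 86, labelled mutant 2-cell, entered no comparison. It held 3483 CPM of Hsd3b1, a steroidogenic gene of granulosa cells, and no count of Gdf9, Dppa3, Uhrf1, Zfp57, Dnmt3b, Dnmt3l or Tet1. A count of 0 there allows a level of up to 1.26 CPM. Above that level it had Dnmt1 at 14.32 CPM, Dnmt3a at 97.28 CPM and Tet3 at 31.58 CPM.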

How the results depend on the processing

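Dnmt1, Uhrf1, Tet3 and Zfp57 stayed at least 2-fold lower, and Dppa3 at least 2-fold higher, in 2-cell-like columns under the 14 other settings and without any 1 column. Their log2 ratios over the 14 settings ranged from -4.43 to -3.63 for Dnmt1, from -1.98 to -1.14 for Uhrf1, from -1.41 to -1.06 for Tet3, from -3.59 to -1.91 for Zfp57 and from 1.12 to 2.22 for Dppa3. Tet1 reversed with medians, to a log2 ratio of -0.43. Only 1 member, Dppa3, was called higher with medians, 1 with thinned counts and 1 in columns labelled mutant. In the last 2 of these settings Tet1 was 6.29-fold and 2.60-fold higher but below the level for comparison. Tet1 was 7.09-fold higher in columns labelled wild type, where 3 members (Dnmt3b, Tet1 and Dppa3) were called higher. With no gene filter 10196 genes were higher and 6534 lower. Genes with few counts then enter, and a class with no count is set to the floor of 3 counts. A gene with fewer counts than that floor in 1 class can then be called higher in the class without a count, so this split is not read.

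Among oocyte-like columns by genotype label, means gave 19 genes higher and 806 lower, DESeq2 size factors 19 higher with 1 member, Tet2, lower, and thinning 138 higher and 893 lower. Among 2-cell-like columns by genotype label, medians gave 1 member higher (Zfp57), 3 lower (Dnmt1, Tet1 and Tet2) and 1364 genes lower. TMM factors gave 1 member higher there, and thinning gave 3 higher (Uhrf1, Zfp57 and Dnmt3l, the last at 2.07-fold) and 2 lower (Tet1 and Tet2). The cause of these shifts was not tested.

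With each column left out in turn, members higher between the classes ranged from 1 to 2 and lower from 4 to 5. By genotype label in oocyte-like columns, genes higher ranged from 34 to 61, genes lower from 816 to 1760 and members lower from 0 to 1. In 2-cell-like columns members higher ranged from 1 to 3. No paired analysis was possible because the label numbers are not shared between groups. Depth limits Tet1, Tet2 and Dnmt3b most.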
